A study of Homo sapiens with 4 samples.

Results

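The mRNAs of 40 enzymes that make, recycle, interconvert and break down purine and pyrimidine nucleotides were followed in MCF10A cells, an immortalised, non-tumorigenic human mammary epithelial line. The enzymes were chosen by gene symbol, and 38 of the 40 had a row among the 18840 genes measured, which is 0.202% of all genes. UMPS and DCTPP1 were not analysed here. Poly(A) RNA was sequenced from 4 stable MCF10A lines, with 1 library each, and the lines differed in the pBabe retroviral construct they carried: no insert (vector), MYC, GFP or miR-105, a microRNA. All lines shared the medium, DMEM/F12 supplemented with hydrocortisone, cholera toxin, EGF, insulin and horse serum, and the pBabe backbone, from which an insert is transcribed by the viral long terminal repeat. The sources used here do not say whether each line was a pool or a clone. The empty vector and GFP libraries served as the 2 controls.

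With 1 library per construct, no spread between cultures could be measured and no test was made. Values are given in CPM, reads scaled to the effective library size, with exact 95% counting intervals, which cover counting error alone. The recovered totals ran from 6859698 reads (miR-105) to 14025115 reads (GFP), so that 1 read was worth between 0.0722 and 0.157 CPM. A gene counted as higher or lower when it differed at least 1.5-fold from both controls in the same direction, among the 12484 genes whose mean over the libraries reached 1 CPM. All 38 enzymes passed that filter, and none had 0 reads in any library. None of the 11 epithelial markers was at 0 in any library, and their medians lay between 507 and 920 CPM. In the miR-105-labelled library 3 of them were higher (27.3%) and 4 lower (36.4%), beside 24.6% and 26.0% of all genes. In the MYC-labelled library 3 were higher (27.3%) and 6 lower (54.5%), beside 17.3% and 18.0% of all genes. Markers of other cells were mixed. The 7 fibroblast markers summed to 131 CPM in vector, 84.7 in GFP, 27.5 in the miR-105-labelled library and 158 in the MYC-labelled library, with DCN the largest contributor (117, 69.4, 16 and 141 CPM) and COL3A1 at 0 in all 4. The 5 immune markers summed to 76.3, 85.5, 24.2 and 19.3 CPM in that order, mostly from CSF1R and CD14, while PTPRC never exceeded 1 read. For the 4 endothelial markers the sums were 46.6, 49.6, 3.61 and 92.1 CPM, mostly from KDR except in the miR-105-labelled library, and the 3 erythroid markers reached at most 0.941 CPM. The part of these differences in the enzyme results was not tested.

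MYC mRNA did not follow the labels. Its level was 207 CPM in vector, 198 in GFP, 464 in the miR-105-labelled library and 232 in the MYC-labelled library. The construct names are therefore used below only as the labels of libraries, and every direction is that of a labelled library. Cell cycle mRNAs differed widely. The median of 12 cycling markers was 8.97 CPM in vector, 7.48 in GFP, 267 in the miR-105-labelled library and 11.1 in the MYC-labelled library. In the miR-105-labelled library all 12 were higher than in both controls, beside 24.6% of all genes. In the MYC-labelled library 6 were higher and 1 lower, beside 17.3% and 18.0% of all genes. These values stand beside every enzyme result below, and the part of cell proliferation in those results was not tested. In bulk RNA, fewer cells that express a gene and less of its RNA per cell cannot be told apart.

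Purine nucleotides are built on a ribose phosphate donated by PRPP, through a chain of enzymes that ends in IMP, from which separate branches lead to AMP and GMP. Pyrimidines are assembled as a ring first, joined to PRPP and carried to UMP, and CTP is made from UTP. Salvage enzymes instead reattach free bases to PRPP or phosphorylate nucleosides, which costs less energy. Dividing cells draw on both routes for RNA and DNA, and several de novo enzyme genes are textbook targets of MYC, which binds with MAX to the E-box CACGTG.

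The CACGTG word occurred near the start of 7 of the 36 enzyme genes that had a promoter entry in RefSeq (GRCh38.p14), or 19.4%. The window ran from 250 bases before to 50 bases after each start, and the word is its own reverse complement, so both strands were searched at once. Over all 27305 genes in the table, 8.78% had it in a window of the same 300 bases. That share covers genes whether or not they were expressed here, while all 36 enzyme genes passed the expression filter. The shares of all genes with the other words below have the same limit. The 7 enzyme genes were PPAT, PAICS, ATIC, DHODH, DCK, NME1 and AK4. Those with the word upstream of the start are shown, 5′ to 3′ on the gene's strand, with CACGTG in capitals and up to 12 flanking bases, because these genes recur in the results.
PPAT, chr4:56435780-56435809, minus strand: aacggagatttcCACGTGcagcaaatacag
ATIC, chr2:215312001-215312030, plus strand: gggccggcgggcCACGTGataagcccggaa
DHODH, chr16:72008573-72008602, plus strand: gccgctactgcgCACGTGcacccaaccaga
DCK, chr4:70993521-70993550, plus strand: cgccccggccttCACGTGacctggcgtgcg
AK4, chr1:65147447-65147476, plus strand: ggtcgcagggagCACGTGggccaggcaggc

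The word lay 182 bases before the PPAT start, 46 before ATIC, 159 before DHODH, 116 before DCK and 93 before AK4. PPAT and PAICS are transcribed away from each other from starts 125 bases apart in the GENCODE annotation of GRCh38. The bases shown for PPAT also hold the PAICS match, 40 bases after the RefSeq start of PAICS, which differs from the GENCODE start. In NME1 the word lay 34 bases after the start. ATIC and AK4 each held a further match, 29 and 17 bases after an annotated start. All 7 of these genes were higher in the miR-105-labelled library, against 15 of the 29 enzyme genes without the word and 24.6% of all genes. In the MYC-labelled library the counts were 4 of 7 and 6 of 29, beside 17.3% of all genes. PPAT and PAICS enter these counts through a single shared match. The share higher among all genes with the word was not counted, here or for the other words below. The CCAAT word (reverse complement ATTGG) was in 11 of 36 enzyme windows, 30.6%, beside 39.7% of all genes. Of those 11, 8 were higher in the miR-105-labelled library, against 14 of the 25 without it, beside 24.6% of all genes. For the MYC-labelled library the CCAAT counts were 5 of 11 and 5 of 25, beside 17.3% of all genes. The E2F-type word TTTGGCGC (reverse complement GCGCCAAA) was in GART and DCK alone, 5.56%, beside 0.795% of all genes. Both were higher in the miR-105-labelled library, against 20 of the 34 without it. Neither was higher in the MYC-labelled library, against 10 of 34. These words are matches of letters, and binding was not measured.

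Across the whole set, 23 of 38 enzymes (60.5%) were higher in the miR-105-labelled library and 1 (2.63%) was lower, beside 24.6% of all genes higher and 26.0% lower. The median log2 difference of the 38 from the controls was 1.36, where the median over all genes was 0.01. In the MYC-labelled library, 11 enzymes (28.9%) were higher and 1 was lower, beside 17.3% of all genes higher and 18.0% lower, and the median was 0.32 against 0.04. At a 2-fold threshold the higher count fell from 11 to 4 in the MYC-labelled library (PFAS, DHODH, NME4 and SAMHD1), and from 23 to 21 in the miR-105-labelled library. The lower count of 1 became 2 in the MYC-labelled library when either control stood alone, through IMPDH1 against vector and CTPS2 against GFP. Summed over the 38 enzymes, expression was 2573 CPM in vector, 2231 in GFP, 5624 in the miR-105-labelled library and 3186 in the MYC-labelled library.

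**Figure D1:**
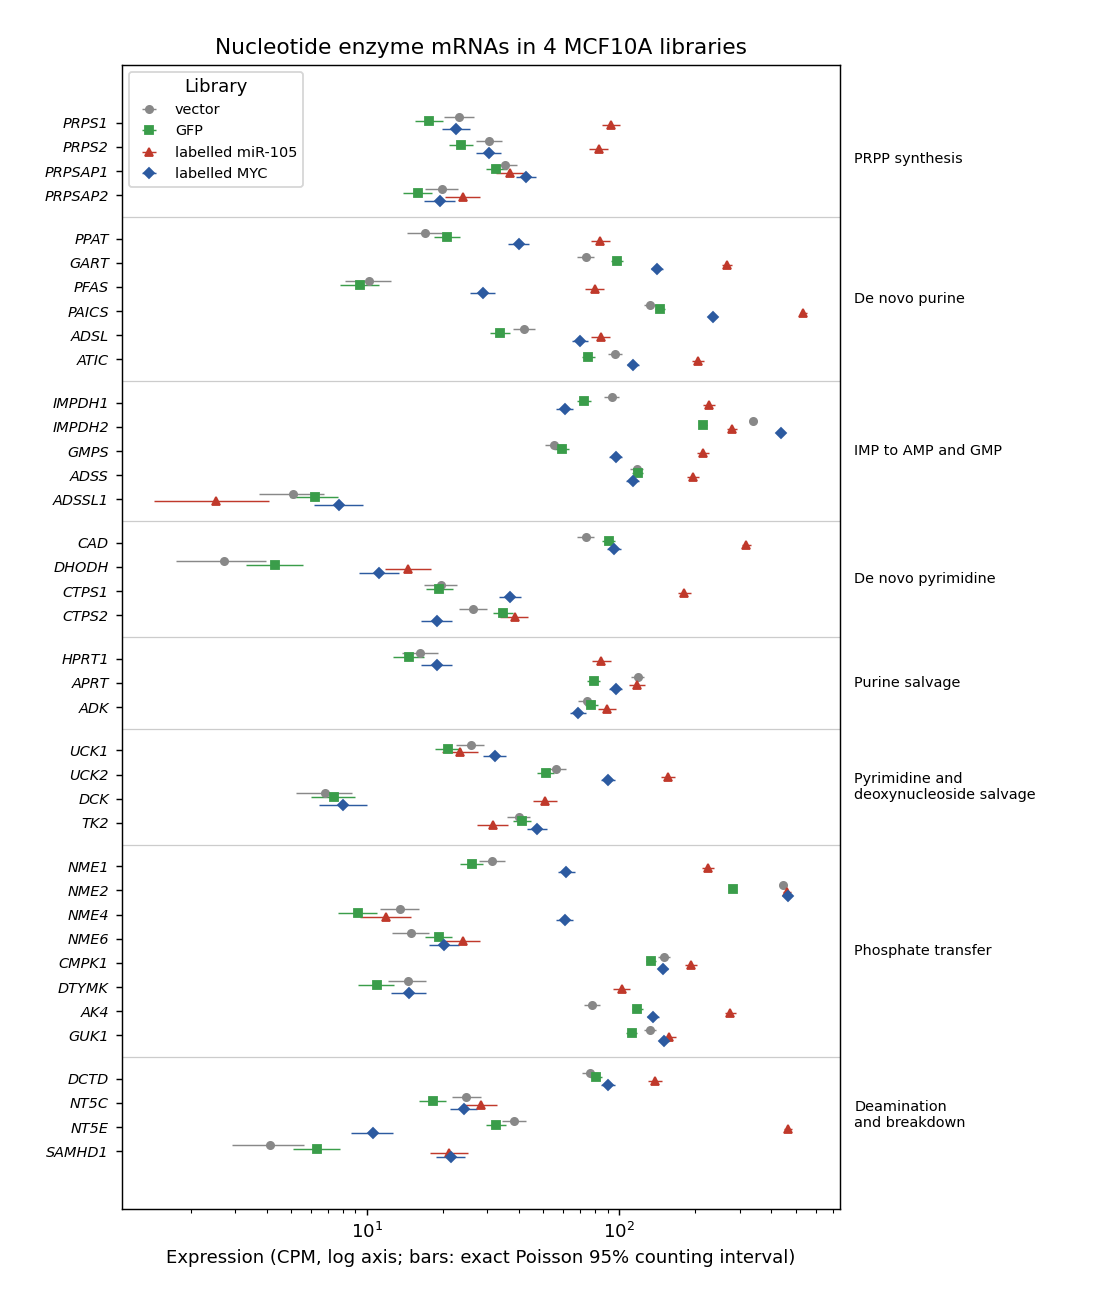
Expression of the 38 enzymes in CPM on a log axis, grouped by role, with 1 point per library and bars for the exact Poisson 95% counting interval. The miR-105-labelled library lies to the right of the other libraries for most de novo enzymes, and NT5E spans from 10.5 to 466 CPM.

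The controls themselves differed little by comparison. GFP was at least 1.5-fold above vector for 3 enzymes (DHODH, AK4 and SAMHD1) and at least 1.5-fold below it for 2 (IMPDH2 and NME2), beside 14.2% of all genes above and 8.42% below. The largest of these differences was in DHODH, at 1.60-fold (0.990 to 2.67). None of the 38 differed 2-fold between the controls.

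PRPP synthesis, the step that feeds both the de novo and the salvage routes, was split between its catalytic and its regulatory subunits. PRPS1, a PRPP synthetase, stood at 23.2 CPM in vector, 17.6 in GFP, 93.0 in the miR-105-labelled library and 22.6 in the MYC-labelled library. Its paralogue PRPS2 was at 30.5, 23.6, 83.0 and 30.3 CPM in the same order. Both were high in the miR-105-labelled library alone. PRPS1 was there 4.0-fold (3.42 to 4.70) above vector and 5.28-fold (4.54 to 6.15) above GFP, and PRPS2 was 2.72-fold and 3.52-fold above them. PRPSAP1 and PRPSAP2, the synthetase-associated proteins, ranged from 32.6 to 42.7 and from 15.9 to 24.0 CPM and passed in neither library. PRPSAP2 in the miR-105-labelled library was 1.51-fold (1.22 to 1.86) above GFP and 1.21-fold (0.972 to 1.51) above vector.

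The purine pathway to IMP was higher at every measured step in the miR-105-labelled library, 6 of 6 enzymes, beside 24.6% of all genes. In the MYC-labelled library 4 of 6 were higher, beside 17.3% of all genes. PPAT, the amidotransferase that commits PRPP to purines, read 17.0 CPM in vector, 20.7 in GFP, 84.1 in the miR-105-labelled library and 39.9 in the MYC-labelled library. The controls lay together, with the MYC-labelled library between them and the miR-105-labelled library. PPAT was 4.95-fold (4.14 to 5.96) and 4.05-fold (3.51 to 4.70) above vector and GFP in the miR-105-labelled library, and 2.35-fold (1.95 to 2.84) and 1.93-fold (1.65 to 2.25) above them in the MYC-labelled library. GART, which carries out 3 of the steps as a single protein, was at 73.5, 97.7, 267 and 141 CPM in that order. It was 3.63-fold and 2.73-fold above the controls in the miR-105-labelled library. GART missed the threshold in the MYC-labelled library through the GFP comparison, where it was 1.44-fold higher (1.34 to 1.56), and passed with scaling by library totals alone.

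PFAS, the formylglycinamidine synthase, had the largest ratios of this segment. It was at 10.2 CPM in vector, 9.39 in GFP, 79.8 in the miR-105-labelled library and 28.7 in the MYC-labelled library. That made 7.86-fold (6.29 to 9.90) and 8.5-fold (7.0 to 10.4) in the miR-105-labelled library, and 2.83-fold (2.24 to 3.60) and 3.06-fold (2.48 to 3.79) in the MYC-labelled library. PAICS, a bifunctional carboxylase and synthetase and the head-to-head neighbour of PPAT, was at 132, 145, 537 and 235 CPM. The order of the libraries was the one seen for PPAT: it was 4.06-fold (3.80 to 4.33) and 3.70-fold above the controls in the miR-105-labelled library, and 1.78-fold (1.66 to 1.91) and 1.62-fold in the MYC-labelled library.

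ADSL, the lyase used both on the way to IMP and on the way to AMP, was at 41.8 CPM in vector, 33.7 in GFP, 84.2 in the miR-105-labelled library and 69.8 in the MYC-labelled library. It counted as higher in both, 2.01-fold and 2.5-fold above the controls in the miR-105-labelled library and 1.67-fold and 2.07-fold in the MYC-labelled library, and these differed by 1.21-fold (1.08 to 1.35). ATIC, which closes the purine ring, was at 96.2, 75.3, 204 and 113 CPM. It was 2.12-fold and 2.71-fold above the controls in the miR-105-labelled library, while in the MYC-labelled library it was 1.18-fold above vector and 1.5-fold above GFP and did not count as higher. Summed over the 6 enzymes, expression was 371 CPM (359 to 384) in vector, 382 (371.8 to 392.5) in GFP, 1256 (1228 to 1284) in the miR-105-labelled library and 628 (613 to 643) in the MYC-labelled library.

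The branches from IMP were mixed. In the miR-105-labelled library 3 of 5 enzymes were higher and 1 was lower, beside 24.6% and 26.0% of all genes. In the MYC-labelled library 1 of 5 (20%) was higher, near the 17.3% of all genes. On the GMP branch, IMPDH1, an IMP dehydrogenase, was at 93.4 CPM in vector, 72.6 in GFP, 227 in the miR-105-labelled library and 60.9 in the MYC-labelled library. Its paralogue IMPDH2 was at 339, 214, 280 and 436 CPM. The dehydrogenases thus peaked in different libraries, IMPDH1 in the miR-105-labelled and IMPDH2 in the MYC-labelled one. IMPDH1 counted as higher in the former, 2.43-fold (2.23 to 2.64) above vector and 3.12-fold (2.88 to 3.39) above GFP. IMPDH2 in the miR-105-labelled library lay between the controls, which themselves differed 1.58-fold (1.51 to 1.67). GMPS, which aminates XMP to GMP, was at 55.2, 59.1, 214 and 96.6 CPM, and was higher in both: it was 3.88-fold and 3.63-fold above the controls in the miR-105-labelled library, and 1.75-fold (1.57 to 1.95) and 1.64-fold (1.49 to 1.79) in the MYC-labelled library.

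On the AMP branch, ADSS, the adenylosuccinate synthase of most tissues, was at 117 CPM in vector, 118 in GFP, 196 in the miR-105-labelled library and 113 in the MYC-labelled library. ADSS counted as higher in the miR-105-labelled library, 1.67-fold (1.54 to 1.81) and 1.66-fold (1.54 to 1.79) above the controls. ADSSL1, its muscle-type paralogue, was at 5.08, 6.21, 2.51 and 7.77 CPM. It was the single enzyme lower in the miR-105-labelled library, 2.02-fold (1.13 to 3.83) below vector and 2.48-fold (1.44 to 4.52) below GFP, and it rested there on 16 reads.

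Pyrimidine synthesis was higher at 3 of 4 measured enzymes in the miR-105-labelled library, beside 24.6% of all genes. In the MYC-labelled library it was higher at 2 of 4, beside 17.3% of all genes. CAD, the trifunctional protein that opens the pathway, was at 73.5 CPM in vector, 90.7 in GFP, 319 in the miR-105-labelled library and 95.5 in the MYC-labelled library. It was 4.34-fold (3.98 to 4.74) and 3.52-fold (3.28 to 3.78) above the controls in the miR-105-labelled library. In the MYC-labelled library it was 1.3-fold (1.18 to 1.43) above vector and 1.05-fold (0.968 to 1.15) above GFP. DHODH, the mitochondrial dehydrogenase that oxidises dihydroorotate, had few reads, 25, 60, 93 and 118 in the same order, or 2.70, 4.33, 14.6 and 11.2 CPM. Its ratios were 5.40 (3.44 to 8.76) and 3.37 (2.41 to 4.74) in the miR-105-labelled library, and 4.14 (2.67 to 6.65) and 2.58 (1.88 to 3.58) in the MYC-labelled library. The 2 libraries could not be separated from each other for this gene, at 1.3-fold (0.983 to 1.73).

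CTPS1, a CTP synthase, showed the largest ratio among the de novo enzymes. It was at 19.6 CPM in vector, 19.4 in GFP, 181 in the miR-105-labelled library and 37.0 in the MYC-labelled library. The ratios were 9.25 (7.90 to 10.9) and 9.35 (8.18 to 10.7) in the miR-105-labelled library, and 1.89 (1.58 to 2.27) and 1.91 (1.63 to 2.24) in the MYC-labelled library. CTPS2, the other CTP synthase, was at 26.3, 34.5, 38.4 and 19.0 CPM and passed the threshold in neither. In the MYC-labelled library it was 1.39-fold (1.14 to 1.68) below vector and 1.82-fold (1.54 to 2.16) below GFP.

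**Figure D2:**
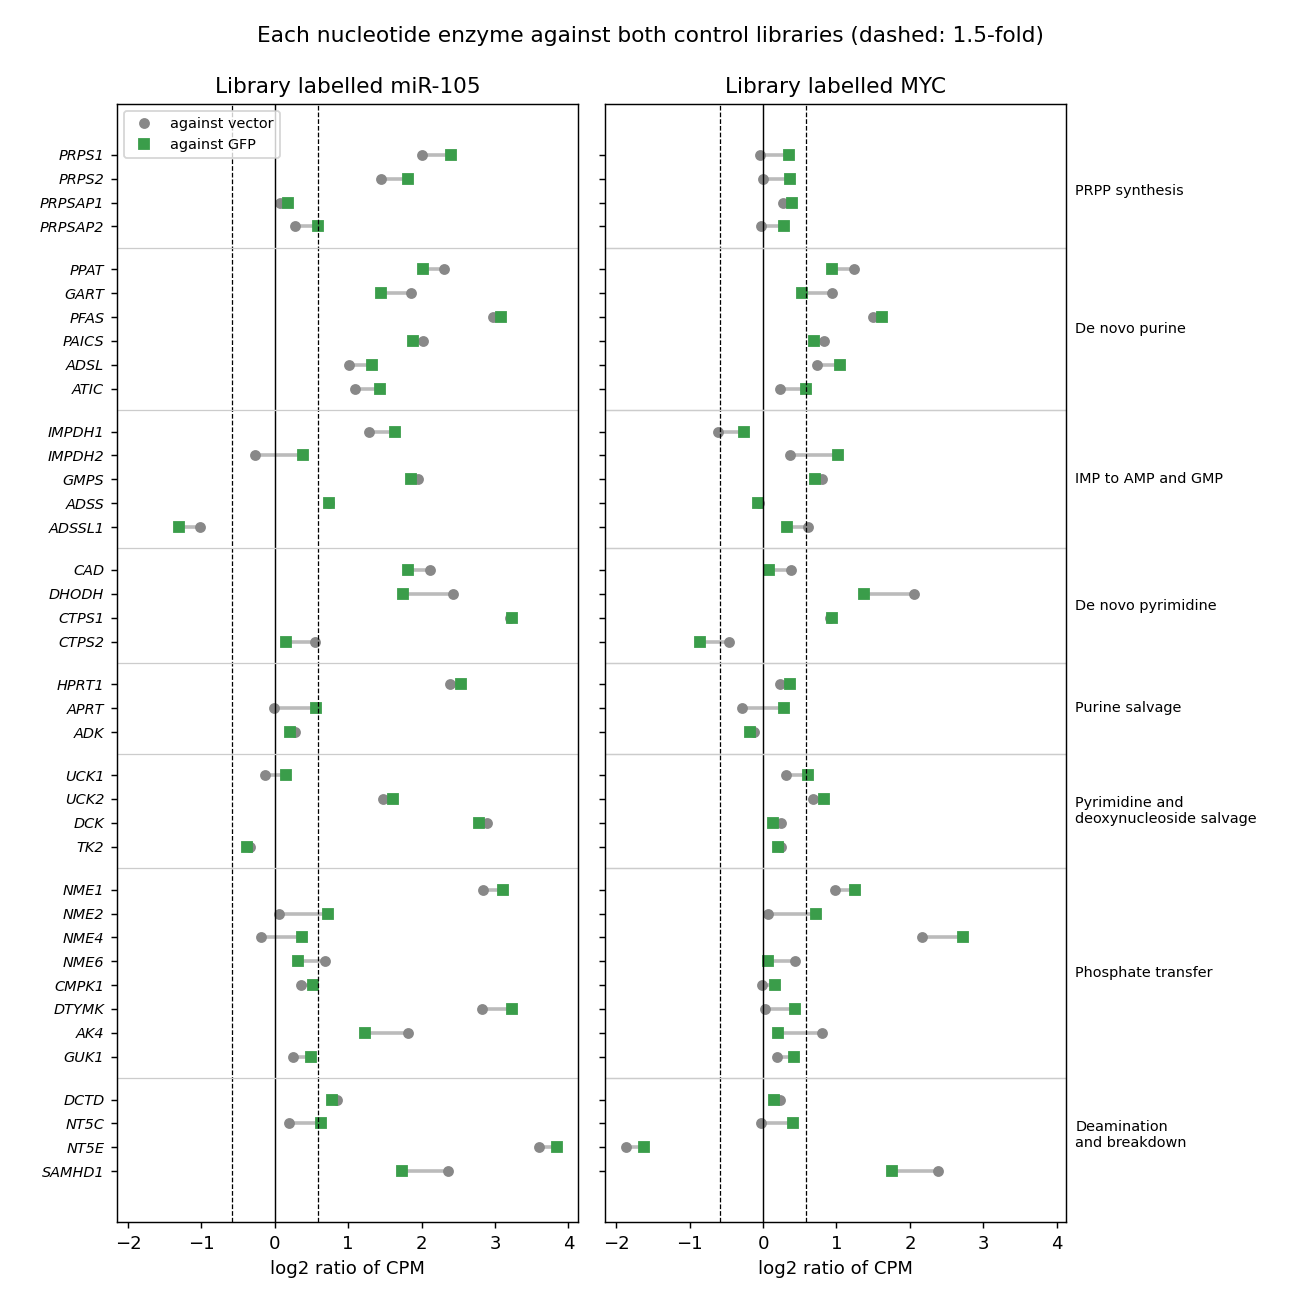
Log2 ratio of CPM of each enzyme to the vector library (circles) and the GFP library (squares), for the libraries labelled miR-105 (left) and MYC (right), with dashed lines at 1.5-fold. An enzyme counted only when both of its points lay past the same dashed line, which was so for 24 enzymes on the left and 12 on the right.

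Purine salvage differed less between libraries, apart from HPRT1. HPRT1, which returns hypoxanthine and guanine to IMP and GMP, was at 16.2 CPM in vector, 14.7 in GFP, 84.8 in the miR-105-labelled library and 19.0 in the MYC-labelled library. It was high in the miR-105-labelled library alone, 5.23-fold (4.36 to 6.31) and 5.79-fold (4.92 to 6.83) above the controls. APRT, the adenine phosphoribosyltransferase, was at 118, 79.3, 117.5 and 96.8 CPM, so that both libraries lay between the controls. ADK, the adenosine kinase, ran from 68.4 to 89.4 CPM and stayed within 1.5-fold of both controls in each library.

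Among the kinases that salvage pyrimidine nucleosides and deoxynucleosides, UCK2 was higher in both libraries and DCK in 1 of them. UCK2, a uridine-cytidine kinase, was at 56.2 CPM in vector, 51.0 in GFP, 156 in the miR-105-labelled library and 90.4 in the MYC-labelled library. Its ratios were 2.78 (2.50 to 3.10) and 3.06 (2.78 to 3.38) in the miR-105-labelled library, and 1.61 (1.44 to 1.79) and 1.77 (1.61 to 1.96) in the MYC-labelled library. DCK, the deoxycytidine kinase, was at 6.81, 7.37, 50.7 and 8.06 CPM. In the miR-105-labelled library it was 7.44-fold (5.66 to 9.90) and 6.88-fold (5.49 to 8.68) above the controls. Those were the largest ratios among the 7 salvage enzymes followed here. TK1, a thymidine kinase outside this set, was 26.3-fold and 40.1-fold above the controls there. UCK1 ran from 21.0 to 32.0 CPM and TK2, the mitochondrial thymidine kinase, from 31.5 to 47.2 CPM, and neither passed the threshold.

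Set side by side, 12 of 15 de novo enzymes (80%) and 3 of 7 salvage enzymes (42.9%) were higher in the miR-105-labelled library, beside 24.6% of all genes. PRPP synthesis, which serves both routes, was counted in neither class. The median log2 differences from the controls were 1.65 for de novo and 0.28 for salvage, 1.37 apart. That gap depended on which genes were called salvage, as wider definitions chosen after seeing the data showed. Adding the kinases TK1 and DGUOK left it at 1.37, with 4 of 9 higher. Adding the phosphorylases PNP and UPP1 as well raised the salvage median to 1.54, with 6 of 11 higher, and cut the gap to 0.11, and with TYMP too the gap was 0.74. The classes overlapped: de novo enzymes ran from −1.02 (ADSSL1) to 3.19 (CTPS1) and salvage enzymes from −0.36 (TK2) to 2.75 (DCK). In the MYC-labelled library, 7 of 15 de novo enzymes (46.7%) and 1 of 7 salvage enzymes (14.3%) were higher, beside 17.3% of all genes, with medians of 0.73 and 0.22, or 0.51 apart. The gap there depended on where PRPP synthesis was put: with its 4 genes counted as de novo, a choice made after seeing the data, the medians in the MYC-labelled library were 0.22 apart. The salvage median in the miR-105-labelled library was 0.56 against GFP alone and 0.27 against vector alone.

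In summed expression the gap between the 15 de novo and 7 salvage enzymes was smaller. De novo enzymes summed to 1104 CPM in vector, 1001 in GFP, 2729 in the miR-105-labelled library and 1504 in the MYC-labelled library. For salvage enzymes the sums were 337, 292, 554 and 362 CPM. The de novo sum in the miR-105-labelled library was thus 2.47 times that in vector and the salvage sum 1.64 times, and in the MYC-labelled library the ratios were 1.36 and 1.07. Sums are weighted towards abundant genes. Of these, IMPDH2 and APRT were not higher in the miR-105-labelled library, while PAICS and CAD were. The part of single genes in the smaller gap was not tested. No test of the difference between the classes could be made with 1 library per construct.

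**Figure D3:**
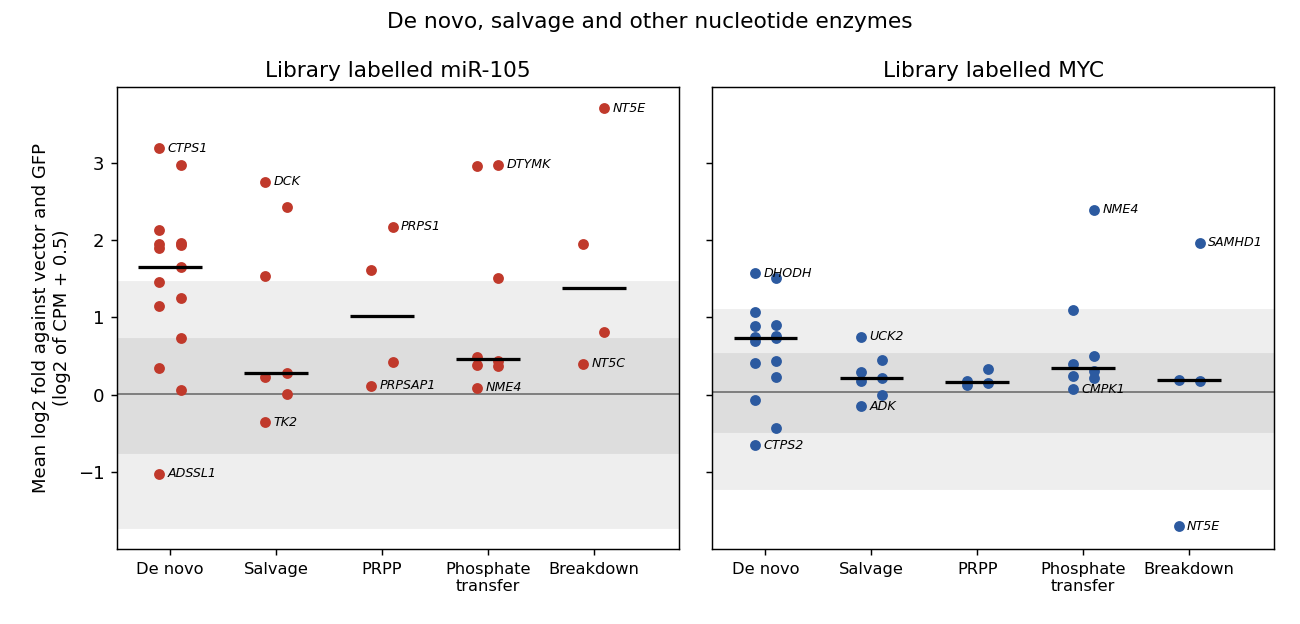
Mean log2 difference of each enzyme from the controls, after adding 0.5 CPM, by class, with a black bar at each class median. The grey line and bands are the median, the middle 50% and the middle 80% of all 12484 genes, and the de novo median (1.65 and 0.73) lies above the salvage median (0.28 and 0.22) in both libraries, with overlapping points.

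Of the enzymes that turn monophosphates into triphosphates, 3 of 8 (37.5%) were higher in the miR-105-labelled library, beside 24.6% of all genes. In the MYC-labelled library 2 of 8 (25%) were higher, beside 17.3% of all genes. DTYMK, the thymidylate kinase needed for dTTP, was at 14.5 CPM in vector, 10.9 in GFP, 102 in the miR-105-labelled library and 14.7 in the MYC-labelled library. Its ratios in the miR-105-labelled library were 7.06 (5.85 to 8.57) and 9.38 (7.84 to 11.3), while in the MYC-labelled library it was 1.01-fold (0.80 to 1.29) above vector. AK4, a mitochondrial adenylate kinase family member, was at 78.2, 118, 276 and 136 CPM. It counted as higher in the miR-105-labelled library, 3.53-fold (3.23 to 3.85) and 2.34-fold (2.18 to 2.50) above the controls, and not in the MYC-labelled library, where it was 1.74-fold above vector and 1.15-fold above GFP. CMPK1, which phosphorylates CMP and UMP, and GUK1, the guanylate kinase, ran from 133 to 192 CPM and from 112 to 158 CPM and did not pass in either library.

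The nucleoside diphosphate kinases, which make triphosphates from diphosphates, differed from each other. NME1 was at 31.4 CPM in vector, 26.0 in GFP, 225 in the miR-105-labelled library and 61.7 in the MYC-labelled library. NME4, the mitochondrial member, was at 13.5, 9.17, 11.9 and 60.7 CPM. NME1 counted as higher in both, 7.17-fold (6.32 to 8.16) and 8.64-fold (7.69 to 9.73) above the controls in the miR-105-labelled library, and 1.97-fold (1.71 to 2.27) and 2.37-fold (2.08 to 2.71) in the MYC-labelled library. NME4 counted as higher in the MYC-labelled library alone, 4.49-fold (3.7 to 5.48) and 6.61-fold (5.46 to 8.07). NME4 had the largest mean log2 difference of the 38 in the MYC-labelled library, 2.39, and was 5.09-fold (4.01 to 6.54) lower in the miR-105-labelled library than there. NME2 was at 444, 281, 463 and 465 CPM, so that GFP stood low and the other libraries together, and NME6 ran from 14.9 to 24.0 CPM. NME1 and NME2 are neighbouring paralogues that overlap the read-through gene NME1-NME2 on chromosome 17. The sources used here do not say how reads were divided between them, so their separate values are uncertain.

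Among the 38, enzymes of breakdown held the widest contrast. NT5E (CD73), the surface enzyme that turns extracellular AMP into adenosine, was at 38.3 CPM in vector, 32.5 in GFP, 466 in the miR-105-labelled library and 10.5 in the MYC-labelled library. The controls lay between the other libraries. NT5E was 12.2-fold (10.9 to 13.6) and 14.3-fold (13.0 to 15.8) above the controls in the miR-105-labelled library, and 3.64-fold (2.93 to 4.54) and 3.09-fold (2.50 to 3.84) below them in the MYC-labelled library. Between these libraries the ratio was 44.2 (36.6 to 54.0). It was the only enzyme of the 38 that counted as lower in the MYC-labelled library.

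SAMHD1, which hydrolyses dNTPs, was at 4.11 CPM in vector, 6.36 in GFP, 21.2 in the miR-105-labelled library and 21.4 in the MYC-labelled library. Its level was alike in the last pair, 1.01-fold apart (0.814 to 1.26), and above the controls by 5.15-fold (3.57 to 7.59) and 3.33-fold (2.53 to 4.41) in the miR-105-labelled library, and by 5.22-fold (3.69 to 7.56) and 3.37-fold (2.62 to 4.36) in the MYC-labelled library. The vector value rested on 38 reads. DCTD, the dCMP deaminase that supplies dUMP for thymidylate, was at 76.8, 80.8, 138 and 89.9 CPM and was 1.8-fold and 1.71-fold above the controls in the miR-105-labelled library. NT5C, a cytosolic nucleotidase, ran from 18.2 to 28.2 CPM and passed in neither library.

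Compared directly, 21 of 38 enzymes were at least 1.5-fold above the MYC-labelled library in the miR-105-labelled library, beside 31.0% of all genes, and 3 (IMPDH2, ADSSL1 and NME4) were at least 1.5-fold below it, beside 30.3%. The count below was 5 with scaling by library totals alone. The median log2 difference of the 38 was 0.79, against 0.05 over all genes. The 21 held 11 of the 15 de novo enzymes and 3 of the 7 salvage enzymes (HPRT1, UCK2 and DCK), beside 31.0% of all genes.

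Paralogues that catalyse the same reaction were compared as read ratios within a library, which scaling between libraries does not touch. IMPDH2 gave 3.63 reads per read of IMPDH1 (3.37 to 3.92) in vector, 2.95 (2.75 to 3.17) in GFP, 1.24 (1.15 to 1.33) in the miR-105-labelled library and 7.16 (6.59 to 7.79) in the MYC-labelled library. The CTPS1 to CTPS2 ratio was 0.745 (0.611 to 0.907), 0.561 (0.481 to 0.652), 4.71 (4.10 to 5.43) and 1.95 (1.64 to 2.32) in that order. The first pair parted the libraries labelled miR-105 and MYC to opposite sides of the controls, and in the second both lay on the side of CTPS1.

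The UCK2 to UCK1 ratio was 2.19 (1.87 to 2.56) in vector, 2.43 (2.11 to 2.79) in GFP, 6.68 (5.62 to 8.0) in the miR-105-labelled library and 2.82 (2.49 to 3.20) in the MYC-labelled library. For ADSS to ADSSL1 the ratios were 23.1 (17.2 to 31.6), 19.0 (15.3 to 23.9), 78.2 (48.0 to 137) and 14.5 (11.6 to 18.4). Both stood out in the miR-105-labelled library alone. PRPS1 to PRPS2 held between 0.744 and 0.762 in 3 libraries and was 1.12 (0.995 to 1.26) in the miR-105-labelled library, and NME2 to NME1 was 14.2 and 10.8 in the controls, then 2.06 and 7.54, with the caution on their shared reads given above.

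**Figure D4:**
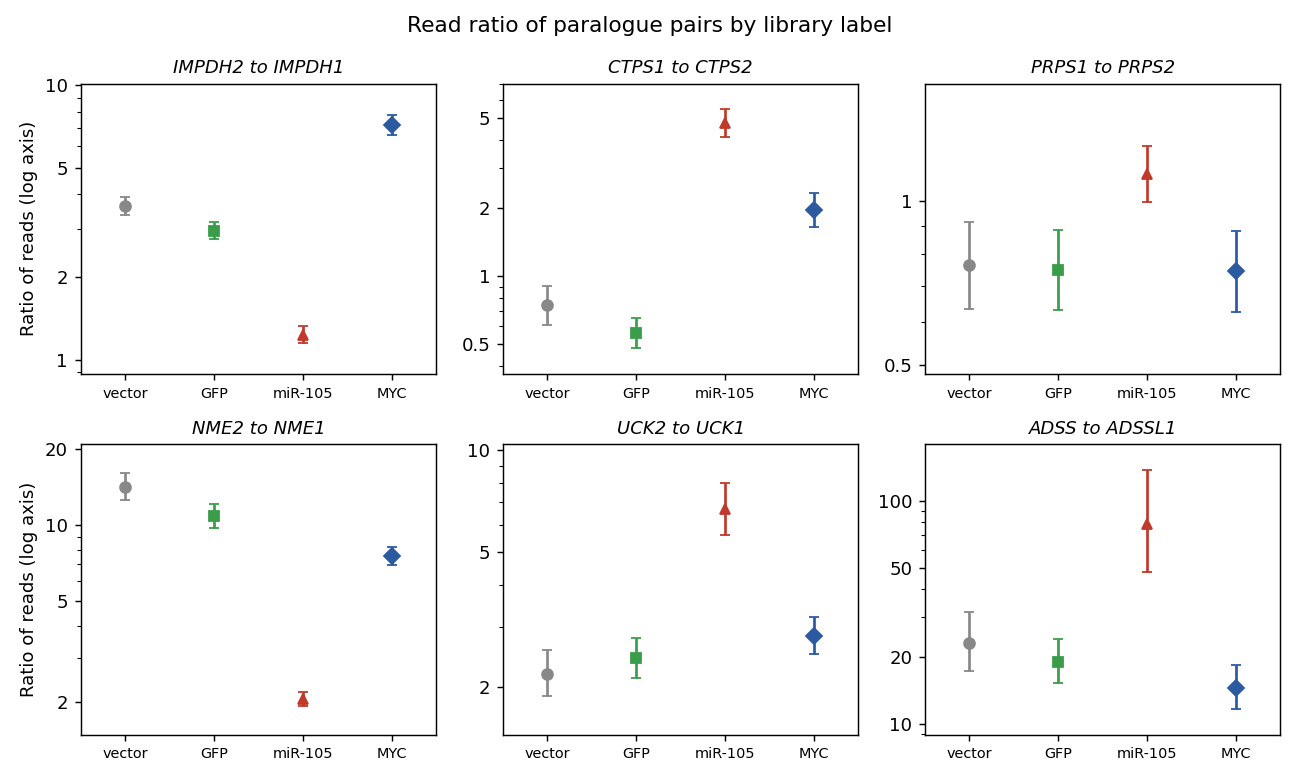
Ratio of reads between paralogues within each labelled library, on log axes that differ between panels, with exact binomial 95% counting intervals. IMPDH2 to IMPDH1 was lowest in the miR-105-labelled library (1.24) and highest in the MYC-labelled library (7.16), while CTPS1 to CTPS2 was above both controls in both.

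Around these enzymes, 44 other genes of nucleotide metabolism passed the filter, out of 47 with a row and 54 symbols listed. In the miR-105-labelled library, 21 were higher and 6 lower at 1.5-fold, and in the MYC-labelled library 16 were higher and 4 lower. As shares of the 44, these were 47.7% and 13.6% in the miR-105-labelled library, beside 24.6% and 26.0% of all genes, and 36.4% and 9.09% in the MYC-labelled library, beside 17.3% and 18.0%. RRM2, the regulatory subunit of ribonucleotide reductase, was at 3.03 CPM in vector, 5.34 in GFP, 624 in the miR-105-labelled library and 6.54 in the MYC-labelled library. TK1, the cytosolic thymidine kinase, was at 5.19, 3.40, 136 and 2.75 CPM. TYMS, the thymidylate synthase, was at 10.1, 10.2, 144 and 14.1 CPM, and RRM1, the catalytic reductase subunit, at 54.4, 51.7, 298 and 86.6 CPM. Like the cycling markers above, these genes were highest in the miR-105-labelled library. RRM2B, the alternative small reductase subunit, named after its values were seen, was instead lowest there, at 167, 227, 84.7 and 149 CPM.

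PNP, the purine nucleoside phosphorylase that supplies bases to HPRT1, was at 25.2 CPM in vector, 21.9 in GFP, 208 in the miR-105-labelled library and 37.0 in the MYC-labelled library. SLC29A1, the equilibrative nucleoside transporter of the plasma membrane, was at 26.5, 16.2, 115 and 28.2 CPM. Both were high in the miR-105-labelled library, as HPRT1 was. SLC29A3, the lysosomal transporter of that family, was instead low in both, at 70.2, 55.8, 5.02 and 8.06 CPM.

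Pyrimidine phosphorylases went opposite ways. UPP1, the uridine phosphorylase, was at 40.1 CPM in vector, 25.4 in GFP, 228 in the miR-105-labelled library and 15.1 in the MYC-labelled library. TYMP, the thymidine phosphorylase, was at 39.1, 28.0, 15.8 and 86.8 CPM. CDA, the cytidine deaminase, was low in both, at 292, 246, 64.0 and 2.46 CPM, which in the MYC-labelled library was 118-fold (80.6 to 182) below vector and 99.8-fold (68.0 to 153) below GFP. GDA, the guanine deaminase, was low in the MYC-labelled library alone, at 97.8, 111, 96.8 and 16.8 CPM.

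Past 2-fold in the miR-105-labelled library, GMPR, the GMP reductase, and AMPD3, an AMP deaminase, were the other low genes, at 3.92 and 20.9 CPM against at least 8.96 and 46.7 in the controls. High genes of the MYC-labelled library also included NT5M, AK1, DPYD, AHCY, AK3 and NME7. NT5M, a mitochondrial nucleotidase, was there at 8.25 CPM against 2.49 in vector and 0.867 in GFP, and AK1, the cytosolic adenylate kinase, stood at 96.3 CPM against 27.2 and 25.9. DPYD, which degrades uracil and thymine, was at 92.8 CPM against 26.7 and 45.1, and AHCY, the adenosylhomocysteine hydrolase, at 476 CPM against 199 and 161. AK3, the mitochondrial GTP-AMP kinase, was at 154 CPM against 62.6 and 60.03, and NME7, a member of the diphosphate kinase family, at 22.2 CPM against 10.3 and 8.6.

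**Figure D5:**
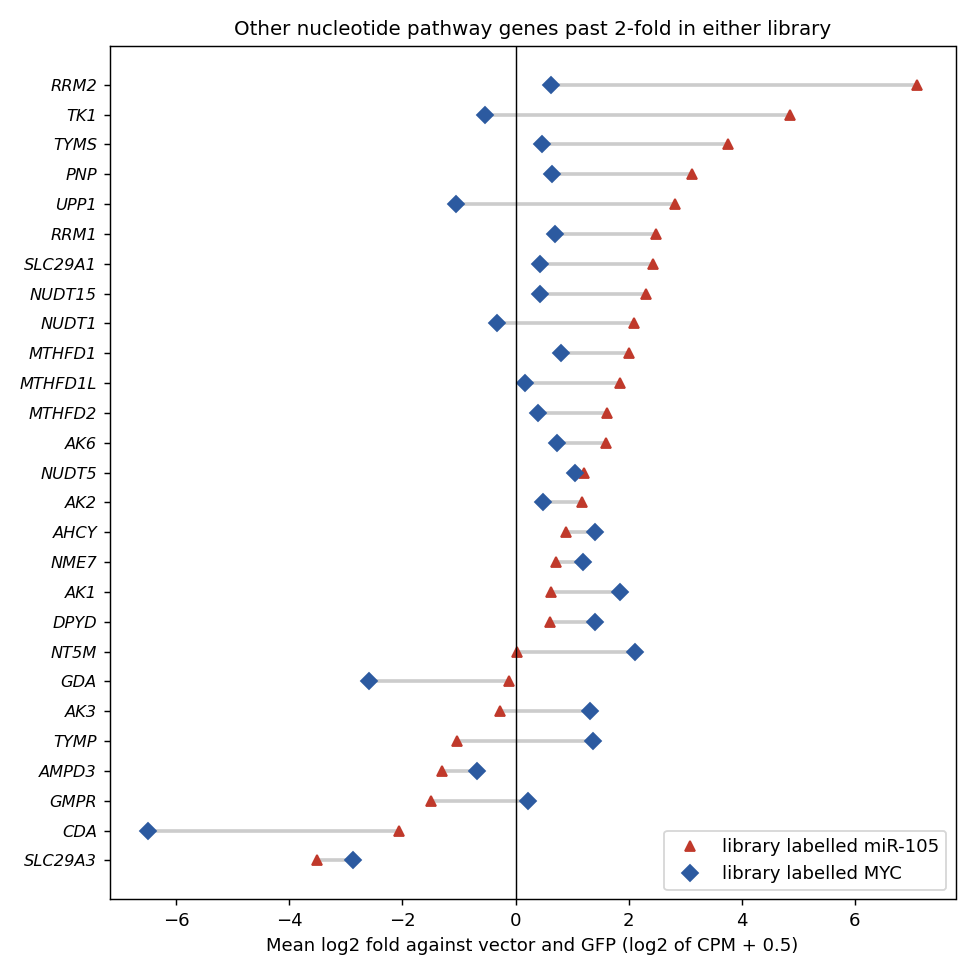
Mean log2 difference from the controls, after adding 0.5 CPM, for other nucleotide pathway genes at least 2-fold from both controls in either library. RRM2 and TK1 lie farthest right for the miR-105-labelled library, and CDA lies farthest left for the MYC-labelled library.

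MTAP, which frees adenine from methylthioadenosine for salvage through APRT, had 0 reads in all 4 libraries, as did its neighbours CDKN2A and CDKN2B. These genes were picked out after their values were seen. Taking 3 reads as its limit, a count of 0 allows up to 0.324 CPM in vector, 0.217 in GFP, 0.47 in the miR-105-labelled library and 0.284 in the MYC-labelled library. MCF10A is known to carry a deletion of the chromosome region that holds them.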

How the data were processed

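The authors used TopHat2, edgeR and hg19 (no versions), per the submitters' processing notes. The sources used here name no read counter, annotation or strand setting. The authors deposited 1 value per gene and library, a signal already adjusted for depth, not the raw counts assumed in the design. The values had the form of pseudo-counts, and inverting that mapping (dispersion 0.0553) gave whole reads for 100% of values in every library, within a relative tolerance of 1e-05. Of 18859 lines, 19 exact repeats were dropped. CPM used recovered totals and TMM factors (1.01, 0.987, 0.93 and 1.08 for vector, GFP, miR-105 and MYC), computed in Python 3.11.15 with numpy 2.4.6, scipy 1.17.1 and pandas 2.3.3, and the steps were tested on simulated data. Log2 differences are means over both controls after adding 0.5 CPM, which understates low genes, while folds are plain CPM ratios. Intervals are exact Poisson for levels and Clopper-Pearson for ratios. They cover counting error only, and the labels name no molecular identifiers. Members past the threshold were given with their values in every library. Other pathway genes were named past 2-fold, at most 8 per library and direction, and a gene that this rule names is not reported here. Members, lists and rules were chosen with earlier results of these data known. Alternatives covered scaling, filter, pseudocount, threshold, single controls and class definitions.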

Additional observations from a re-analysis of the deposited data

How the results depend on the processing

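Of the summary values under alternative settings, 108 moved by less than the set limits and 17 moved. The medians and gaps among them kept their sign, while counts have no sign to change. Changing the filter could not move any value, because all 38 enzymes passed with no filter, at 1 CPM and at 5 CPM. Scaling shifts both class medians together, so it left the gaps nearly unchanged. A salvage median going from 0.277 to 0.173 with library totals in the miR-105-labelled library was within the limits. These tallies are therefore no measure of how firm the results are. For single enzymes, 488 values stayed within the limits and 44 moved. Enzymes with small differences could change sign: IMPDH2 in the miR-105-labelled library went from a log2 difference of 0.0567 to −0.275 against vector alone. At a 2-fold threshold the enzymes higher in the MYC-labelled library numbered 4, and those differing between GFP and vector numbered 0 (5 at 1.5-fold). With vector alone or GFP alone as control, 2 enzymes were lower in the MYC-labelled library. For the miR-105-labelled library, vector alone gave a de novo median log2 difference of 1.85 and a gap to salvage of 1.58, and GFP alone gave a salvage median of 0.564 and a gap of 1.07. Leaving the IMP branch out of de novo, chosen after seeing the data, gave 1.94 and a gap of 1.67. Counting PRPP synthesis as de novo, likewise chosen afterwards, gave 0.435 and a gap of 0.218 in the MYC-labelled library. Wider salvage classes, also chosen afterwards, gave the miR-105-labelled library a salvage median of 1.54 and a gap of 0.112 with TK1, DGUOK, PNP and UPP1, and 0.907 and 0.741 with TYMP added. Scaling by library totals put 5 enzymes below the MYC-labelled library in the miR-105-labelled library, and moved the median of all genes to −0.09 and 0.14 in the libraries labelled miR-105 and MYC. No paired analysis was possible because each construct had 1 library and no result came from a test. Depth limits ADSSL1, DHODH and SAMHD1 most, with 16, 25 and 38 reads in their lowest libraries.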
